A study of Mus musculus with 8 samples.

Results

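The 8 genes described here encode the Toll-like receptors of the cell surface (Tlr1, Tlr2, Tlr4, Tlr5 and Tlr6) and proteins that help TLR4 bind lipopolysaccharide (Cd14, Ly96 and Lbp). They were taken as every probe set that the platform annotation assigns to exactly 1 of these symbols, which gave 12 of the 45037 probe sets other than array controls. Of the 12 probe sets, 8, for 7 of the 8 genes, lay above the filter on dim signals. The genes were chosen by their role and with earlier results of the same comparison of signals known, in which Cd14 was among the larger differences, so the differences between the groups are given as a description and no p-value of these genes is printed.

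Toll-like receptors are membrane proteins of innate immune cells that bind conserved parts of microbes. On the cell surface, TLR4 binds bacterial lipopolysaccharide (LPS) together with its co-receptor MD-2, the product of Ly96, while the serum protein LBP extracts LPS and CD14, a protein of the monocyte, macrophage and neutrophil surface, passes it on. TLR2 pairs with TLR1 or TLR6 to bind bacterial lipopeptides, and TLR5 binds flagellin.

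RNA came from spleen cell suspensions of male mice aged 8 weeks, in which red cells had been lysed, with 1 Affymetrix expression array for each sample. The Yaa group held 4 samples of strain B6.SB-Yaa/J, in which the Y chromosome bears an extra copy of X-linked DNA with Tlr7; Yaa 3 pooled 2 spleens and each other sample came from 1 mouse. The wild-type group held 4 samples of C57Bl/6J. The labels name no treatment, and other genetic differences between the strains were not analysed here. Samples are numbered as in the labels.

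A pair of Yaa samples, 2 and 3, differed widely from the rest. Values below are quantile-normalized signals, or means of log2(signal + 16) where called log2. The mean log2 signal of 11 B cell markers was 5.86 in Yaa 3, against 10.48 to 11.17 in the other Yaa samples and 10.54 to 10.88 in wild type. That is close to the filter on dim signals, which lay at 5.38. T cell markers stood at 5.57 in Yaa 3 and between 8.47 and 9.54 in the other 7 samples. Erythroid markers were lowest in Yaa 2, at 10.01, against 11.60 to 11.96 in wild type. The differences of the tested receptors and co-receptors, and the medians of the neutrophil, monocyte and macrophage, B cell, pathway and LPS-induced lists, are therefore also given without Yaa 2 and Yaa 3.

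Cd14 showed the widest gap of these genes, and Tlr2 was the other that separated the groups. Both were higher in all 4 Yaa samples than in any wild-type sample, Cd14 by 5.43-fold and Tlr2 by 1.96-fold. In the signals as deposited the groups stayed apart for Cd14 and overlapped for Tlr2. Tlr1, the partner of TLR2, lay lower on average in Yaa, by 0.98 on the log2 scale, and Lbp higher by 1.49, each with groups that overlapped. Ly96, Tlr4 and Tlr6 differed by less than 0.3. In limma's test across the 22518 probe sets past the filter, 0 of the 8 tested probe sets had an adjusted p under 0.05; over the array this share was 0.00444% higher in Yaa and 0% lower. One of the 8, Lbp 1448550_at, passed the filter only through the Yaa samples, so its listing as higher in the counts that follow is no evidence of a difference. With limma array weights, which lower the part of Yaa 2 and Yaa 3, limma called 2 of the 8 higher, Cd14 and this Lbp probe set, and 0 lower, beside 0.453% higher and 0.182% lower of all tested probe sets. Without Yaa 2 and Yaa 3 it called 1 higher, Cd14, and 0 lower, beside 0.324% and 0.142%. At an unadjusted p under 0.05 there were 3 higher (Cd14, Lbp and Tlr2) and 1 lower (Tlr1), where 2.97% and 1.76% of all tested probe sets were listed. Groups that did not overlap, with Yaa higher, were found for 2 of the 8, beside 2.43% of all tested probe sets. These shares describe the array, since the genes were chosen with this contrast known. In such bulk samples, more cells of a type and more RNA per cell cannot be told apart.

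**Figure D1:**
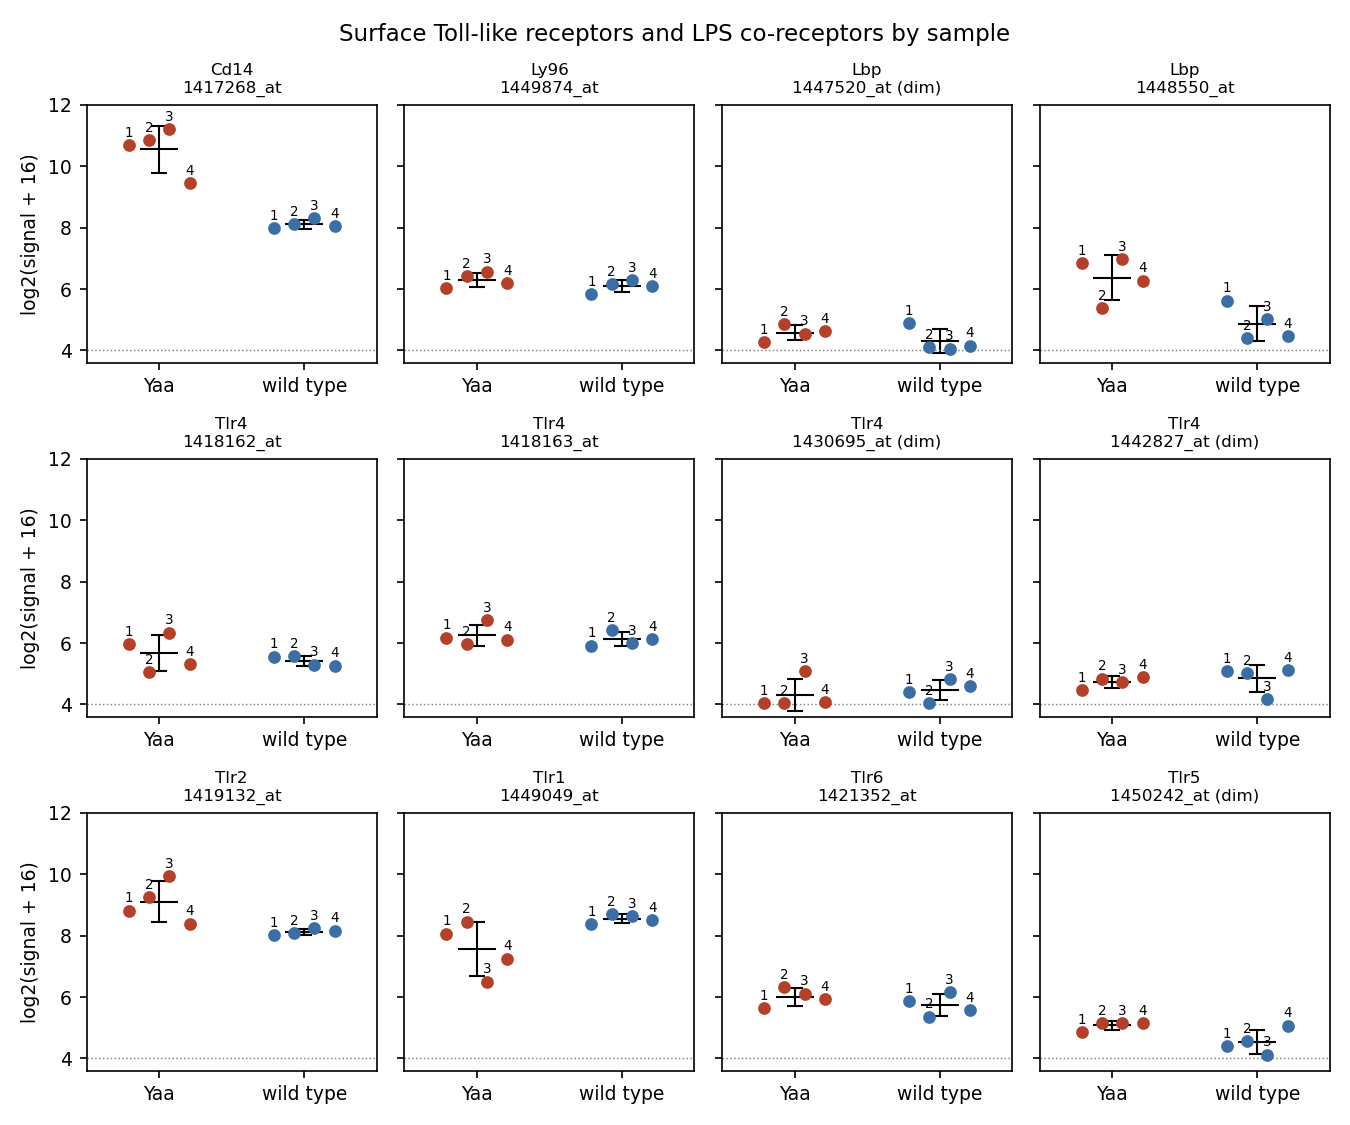
Log2(signal + 16) of the 12 probe sets in each sample, Yaa left and wild type right. Points carry the replicate number, and the bars give the mean ± SD of 4 samples. The dotted line is the floor at 4 that the added 16 sets, and (dim) marks probe sets below the filter. Cd14 and Tlr2 keep the groups apart in these normalized signals, Tlr2 not in those deposited. Tlr1 is lowest in Yaa 3 and Yaa 4.

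Cd14 lacks a signalling domain of its own and serves as the shared co-receptor of TLR4 and TLR2. Its signal was 1631, 1817, 2359.6 and 686 in Yaa 1 to 4, against 236, 259.8, 302 and 247 in wild type 1 to 4. The lowest Yaa sample, Yaa 4, still lay above the highest wild-type sample, and the Yaa samples spread far more widely than the wild-type samples. Log2 signal averaged 10.55 ± 0.76 in Yaa and 8.11 ± 0.15 in wild type (SD, n = 4 each), a difference of 2.44 ± 0.33 (SE of the fit). Among the 10340 genes tested, each through its brightest tested probe set, no other difference was higher. The difference was 2.21 to 2.80 with single samples left out and 1.96 ± 0.27 (SE) without Yaa 2 and Yaa 3.

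Lbp, an acute-phase protein made mostly by the liver, had a probe set, 1448550_at, with signals of 99.3, 25.6, 110 and 61.2 in Yaa 1 to 4, against 33.4, 4.96, 16.6 and 5.92 in wild type 1 to 4. Yaa 2 lay below wild type 1, and the other Yaa samples lay above all of wild type. The log2 difference was 1.49 ± 0.40 (SE), and 1.72 ± 0.36 (SE) without Yaa 2 and Yaa 3. Because the wild-type samples averaged 4.87 and the filter lay at 5.38, this probe set passed only through the Yaa samples, and its difference depended on the added constant, at 2.38 with log2(signal + 1) and 0.77 with log2(signal + 64). The second Lbp probe set, 1447520_at, was dim throughout, with signals under 14 in all 8 samples. Of the 4 hepatocyte markers, Alb, Apoa1 and Ttr were matched to probe sets and 0 passed the filter. Alb reached at most 22.2 in Yaa and 22.7 in wild type, Apoa1 20.8 and 14.2, and Ttr 17.1 and 6.78.

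TLR4 and its co-receptor showed no comparable gap. Ly96 signal was 49.3, 69.4, 78.6 and 56.8 in Yaa 1 to 4, against 41.0, 55.9, 62.4 and 52.8 in wild type 1 to 4. The groups overlapped, with a log2 difference of 0.20 ± 0.17 (SE), of 0.01 ± 0.19 (SE) without Yaa 2 and Yaa 3, and of -0.01 with limma array weights. Tlr4 had 4 probe sets. Its brightest, 1418163_at, read 56.4, 46.3, 91.8 and 52.8 in Yaa 1 to 4, against 44.3, 70.0, 48.2 and 54.2 in wild type 1 to 4, a log2 difference of 0.13 ± 0.20 (SE). Only Yaa 3 lay above wild type, and without it the difference was -0.04; it was also below 0 with the signals as deposited, at -0.05, and with array weights, at -0.01. Without Yaa 2 and Yaa 3 it was 0.02 ± 0.20 (SE). The other tested Tlr4 probe set, 1418162_at, differed by 0.25 ± 0.28 (SE), by 0.03 without Yaa 3 and by 0.22 ± 0.25 (SE) without Yaa 2 and Yaa 3. The remaining pair, 1430695_at and 1442827_at, lay below the filter and differed by -0.16 and -0.12. Relative to the wild-type mean, Cd14 stood above Tlr4 by 2.52, 2.89, 2.47 and 1.36 on the log2 scale in Yaa 1 to 4, and by -0.31 to 0.32 in wild type.

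**Figure D2:**
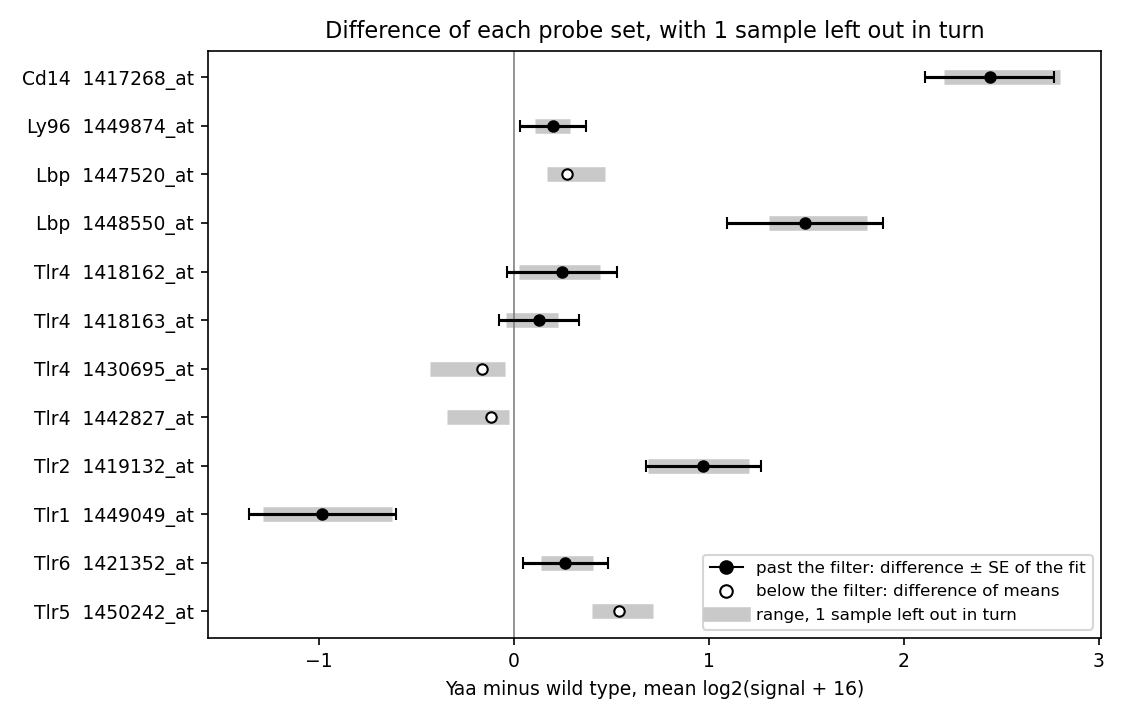
Yaa minus wild type of mean log2(signal + 16) for each probe set. Filled points carry the SE of the limma fit, and open points are probe sets below the filter with no SE. Grey bars span the values with 1 sample left out in turn. Only the bar of Tlr4 1418163_at crosses 0. The bars of Tlr1 and of the dim Tlr4 probe sets stay below 0 and all others above. Small differences such as Ly96, at 0.11 to 0.29, also stay on 1 side, so this sets no gene apart. Lbp 1448550_at passed the filter only through the Yaa samples.

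Among the receptors for lipopeptides, Tlr2 lay higher in Yaa and Tlr1 lower on average. Tlr2 signal was 433, 597, 971 and 321 in Yaa 1 to 4, against 244, 256, 289 and 269.7 in wild type 1 to 4. In these normalized signals each Yaa sample lay above each wild-type sample, with Yaa 4 close to wild type 3. In the signals as deposited the groups overlapped, with Yaa 4 at 283, below wild type 2 at 329 and wild type 4 at 286. The log2 signal averaged 9.10 ± 0.66 in Yaa and 8.13 ± 0.10 in wild type (SD, n = 4 each), a difference of 0.97 ± 0.29 (SE), which was 0.69 without Yaa 3 and 0.47 ± 0.15 (SE) without Yaa 2 and Yaa 3.

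Tlr1 signal was 252, 336, 74.5 and 136 in Yaa 1 to 4, against 314, 398, 379.8 and 348 in wild type 1 to 4. Yaa 2 lay within the wild-type range and the other Yaa samples below it. The log2 signal averaged 7.57 ± 0.87 in Yaa and 8.55 ± 0.14 in wild type (SD, n = 4 each), a difference of -0.98 ± 0.38 (SE), of -0.62 without Yaa 3 and of -0.90 ± 0.21 (SE) without Yaa 2 and Yaa 3. Within each array, Tlr2 stood above Tlr1 by 1.16, 1.22, 3.87 and 1.57 on the log2 scale in Yaa 1 to 4, relative to the wild-type mean, and by -0.19 to 0.08 in wild type.

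Tlr6, which lies beside Tlr1 in the genome and encodes the other partner of TLR2, did not share the lower values of Tlr1. Its signal was 34.0, 63.8, 53.2 and 45.4 in Yaa 1 to 4, against 41.9, 25.2, 55.8 and 31.5 in wild type 1 to 4. The groups overlapped throughout, with a log2 difference of 0.27 ± 0.22 (SE). It was 0.14 without wild type 2, 0.41 without wild type 3 and 0.05 ± 0.25 (SE) without Yaa 2 and Yaa 3. Tlr5 was dim in both groups, at 12.9, 19.6, 19.6 and 19.6 in Yaa 1 to 4 and 5.10, 7.65, 1.42 and 17.6 in wild type 1 to 4. With detection calls not used here, no level of Tlr5 can be told from background.

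The promoters of Tlr2 and Tlr1 are shown because the Yaa means of these partner receptors lay on opposite sides of wild type, with overlapping groups for Tlr1. The RefSeq table of GRCm38.p6 held start-site windows for Tlr1, Tlr2, Tlr5 and Tlr6, 4 of the 8 genes. The 250 bases before the start of Tlr2 lie at chr3:83841609-83841858 on the minus strand, and those before the more upstream start of Tlr1 at chr5:64933559-64933808 on the minus strand. Both strands were searched for the GC box GGGCGG, the PU.1 core GAGGAA and the NF-kB consensus, and capitals mark the matches.
Tlr2: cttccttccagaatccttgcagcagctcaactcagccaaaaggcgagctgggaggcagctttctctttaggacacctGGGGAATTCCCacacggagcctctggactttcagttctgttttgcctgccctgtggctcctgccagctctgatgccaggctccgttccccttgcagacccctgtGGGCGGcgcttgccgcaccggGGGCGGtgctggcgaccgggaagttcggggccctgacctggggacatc
Tlr1: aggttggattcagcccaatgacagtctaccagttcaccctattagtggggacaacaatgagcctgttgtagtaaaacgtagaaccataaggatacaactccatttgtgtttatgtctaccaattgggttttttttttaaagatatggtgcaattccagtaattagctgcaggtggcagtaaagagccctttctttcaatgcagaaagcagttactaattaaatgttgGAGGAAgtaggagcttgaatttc
The Tlr2 window held overlapping NF-kB matches from 173 to 163 bases before the start, the second of them on both strands, and 2 GC boxes. The Tlr1 window held a PU.1 core 23 to 18 bases before the start and neither of the others. The window at the more downstream start of Tlr1, not shown, held no match to any of these motifs. Over all 32851 windows of this length, 7.25% held the NF-kB consensus, 32.7% the GC box and 23.3% the PU.1 core. A match describes the letters only.

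Markers of myeloid cells were also higher on average in Yaa, and their values by sample are set beside those of Cd14, Lbp and Tlr2. All 14 tested neutrophil markers had higher means in Yaa, with a median log2 difference of 1.45, beside -0.02 over all tested genes. Among these markers, Cxcr2 and Padi4 averaged 4.97 and 5.36 on the log2 scale in wild type, under the filter at 5.38. They passed only through the Yaa samples, so their higher means are no evidence of a difference. Of the 14 markers, limma called 0 and listed 9 as higher at an unadjusted p under 0.05, beside 3.23% of all tested genes. With array weights it called 11 of the 14 higher, beside 0.658% of all tested genes, and without Yaa 2 and Yaa 3 the median was 2.24 over the 13 still tested. Their mean log2 signal was 10.46, 8.23, 10.02 and 9.32 in Yaa 1 to 4, against 8.50, 8.05, 7.80 and 7.84 in wild type 1 to 4. Their summed signal ran from 13844 to 60104 in Yaa and from 9015 to 14966 in wild type, and none of the tested markers was at 0. The mean and the sum of Yaa 2 lay within the wild-type range, but its single markers did not go one way: 6 of the 14 lay above all wild-type samples, 4 below all of them and 4 within their range. Csf3r, the receptor gene of the granulocyte growth factor G-CSF, read 442 in Yaa 2, against 126 to 163 in wild type, while Camp, which encodes an antimicrobial granule peptide, read 280 in Yaa 2, against 396 to 737 in wild type; both were named after their values were seen. Cd14 signal in Yaa 2 was 2.73 above the wild-type mean on the log2 scale. Lbp stood at 1.98, 0.50, 2.10 and 1.40 above its wild-type mean in Yaa 1 to 4 on the log2 scale, lowest in Yaa 2. Of the 14 neutrophil markers, 11 were likewise lowest among the Yaa samples in Yaa 2, and the other 3, Csf3r, Cxcr2 and Padi4, in Yaa 4.

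Monocyte and macrophage markers had a mean log2 signal of 9.34, 9.29, 9.86 and 8.90 in Yaa 1 to 4, against 8.82, 8.81, 8.76 and 8.84 in wild type 1 to 4. Every Yaa sample lay above wild type, Yaa 4 by least. The order of the Yaa samples put Yaa 3 first and Yaa 4 last, as for the normalized signals of Tlr2 and Cd14. Their summed signal ran from 18880 to 31920 in Yaa and from 16229 to 18205 in wild type. Of the 15 tested markers, 14 had higher means, where 45.8% of all tested genes did, with a median log2 difference of 0.62. Of these markers limma called 0 and listed 7 as higher at an unadjusted p under 0.05, beside 3.23% of all tested genes. With array weights it called 3 higher, beside 0.658% of all tested genes, and without Yaa 2 and Yaa 3 the median was 0.32. Lyz2, a lysozyme gene of myeloid cells, differed by 0.98 ± 0.19 (SE) and the integrin gene Itgam by 0.91 ± 0.25 (SE). Markers of splenic macrophages were at 8.56 to 9.98 in Yaa and 8.64 to 8.74 in wild type, with Yaa 3 the sample above wild type by more than 1 on the log2 scale. The part of these cells in the differences of Cd14, Tlr2 and Lbp was not tested.

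For Tlr1 the B cell markers were set beside it. Relative to the wild-type mean on the log2 scale, Yaa 3 had -4.89 for these markers and -2.05 for Tlr1. Yaa 4 had -0.27 for the markers and -1.31 for Tlr1, and Yaa 1 had -0.27 and -0.48. Yaa 2 had 0.42 for the markers and -0.09 for Tlr1, each the highest among the Yaa samples. The summed signal of the B cell markers was 28784 in Yaa 4 and 997 in Yaa 3, against 27346 to 33055 in wild type. Without Yaa 2 and Yaa 3 the median log2 difference of these markers was -0.28, against -1.25 in all samples. The part of B cells in the Tlr1 difference was not tested.

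**Figure D3:**
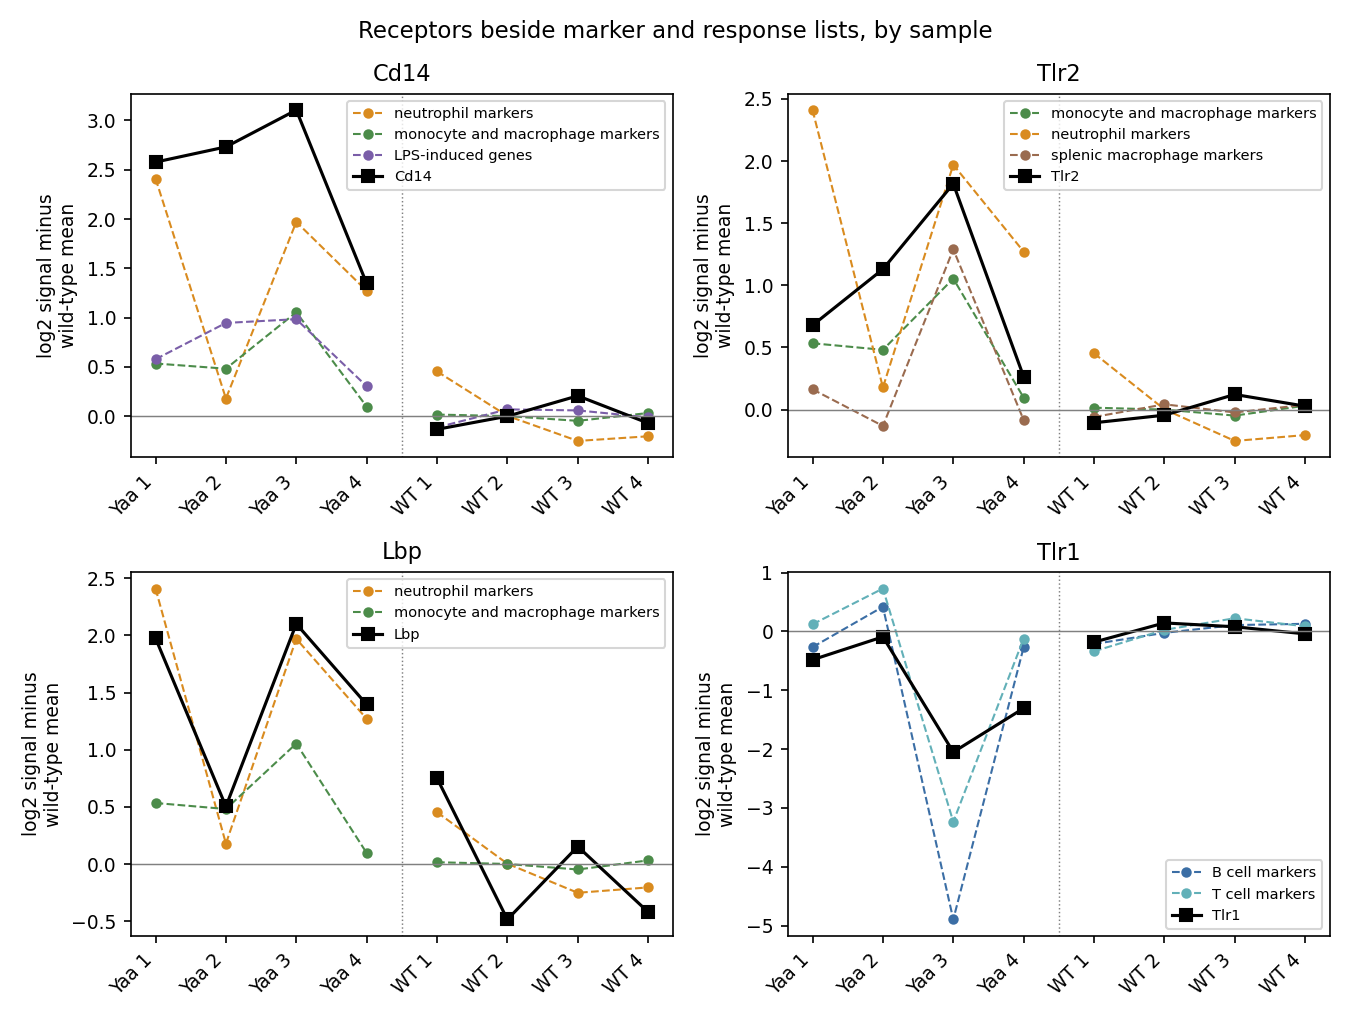
Log2 signal of Cd14, Tlr2, Lbp and Tlr1 (black squares) and mean log2 signal of marker or response lists (coloured points), each minus its own wild-type mean, in the 8 samples. Lbp and the mean of the neutrophil markers are lowest among the Yaa samples in Yaa 2. Cd14 stands 2.73 above wild type in Yaa 2, where that mean, over markers that lie above and below wild type, stands 0.18 above. Tlr1 is low in Yaa 4, where B cell markers are at -0.27. Among the Yaa samples, Tlr1 and the B cell markers are both lowest in Yaa 3 and highest in Yaa 2.

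Genes whose pattern over the 8 samples was most like each receptor were ranked by the root mean square difference of log2 signal after centring each gene on its own mean. For Cd14 the nearest of 10339 genes were Sgms2 at 0.39, Hdc, which makes histamine, at 0.42, Slfn4 at 0.50, the arginase gene Arg2 at 0.54 and the C-type lectin gene Clec4d at 0.59, where Cd14 itself had an SD of 1.40. Sgms2, a sphingomyelin synthase gene, read 158, 173, 209 and 62.2 in Yaa 1 to 4, against 28.5 to 34.9 in wild type. Like Cd14 it was lowest among Yaa in Yaa 4 and higher there than in any wild-type sample. Such likeness, here and for the other receptors below, follows from ranking the genes on these same 8 samples.

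For Tlr2, with an SD of 0.68, the nearest were Ccr2, a chemokine receptor gene of inflammatory monocytes, at 0.09, Ms4a6d at 0.11 and Adam8 at 0.12. Ccr2 read 238, 331, 522 and 183 in Yaa 1 to 4, against 132 to 166 in wild type, which is the same order of the Yaa samples as in Tlr2. Ccr2 is also 1 of the monocyte and macrophage markers. For Lbp the nearest were S100a8, a calprotectin gene, at 0.28, the haptoglobin gene Hp at 0.28 and Ctsg, of neutrophil granules, at 0.30. The Lbp probe set passed the filter only through the Yaa samples, and its difference followed the added constant. Its ranking therefore describes the values at this constant and is no evidence of a link to these genes. For Tlr1 they were Pdxdc1 at 0.17, A630023P12Rik at 0.22 and Ctso at 0.24, and Ctso read 438, 885, 245 and 398 in Yaa 1 to 4, against 679.9 to 829.5 in wild type.

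Genes that work with these receptors inside and on the cell were as often lower as higher. Of 33 listed co-receptors, chaperones, adaptors, kinases and regulators, 27 were tested; 14 had higher means and 13 lower, with a median log2 difference of 0.01, and of -0.04 without Yaa 2 and Yaa 3. limma called 0, and 2, both higher, had an unadjusted p under 0.05, beside 3.23% of all tested genes listed as higher. The sign of this median turned in 10 of 19 alternative settings, the signals as deposited among them. Those with the largest t were Itgam, a subunit of complement receptor 3, Irak3, an inhibitory kinase-like protein of this pathway, at 0.43 ± 0.14 (SE), the TLR4 and TLR3 adaptor gene Ticam1 at 0.47 ± 0.24 (SE), and Sigirr, an inhibitory receptor gene, at -0.39 ± 0.21 (SE). Irak3 read 97.9, 107, 90.4 and 96.1 in Yaa 1 to 4, against 63.8, 75.8, 54.6 and 83.5 in wild type 1 to 4. Its Yaa samples lay close together, and all were above wild type. The adaptor gene Myd88, named after its value was seen, differed by 0.22 ± 0.15 (SE). Cd180 and Ly86, which encode a B cell relative of the TLR4 and MD-2 pair and were also chosen after their values were seen, differed by -0.36 ± 0.22 and -0.26 ± 0.25 (SE), both lowest in Yaa 3.

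Genes that LPS is known to induce in macrophages were mostly higher. Of the 26 tested, 24 had higher means, where 45.8% of all tested genes did, and 11 had groups that did not overlap, with Yaa higher, beside 2.61% of all tested genes. The median log2 difference was 0.60, and 0.45 without Yaa 2 and Yaa 3. limma called 0 and listed 14 at an unadjusted p under 0.05, all higher, beside 3.23% of all tested genes; with array weights it called 2 higher, Slfn4 and Lcn2, beside 0.658%. The list was drawn up with earlier results of these arrays known and Lcn2 is also a neutrophil marker, so it is no independent support for a direction. Slfn4 differed by 2.24 ± 0.26 (SE), the lectin receptor genes Clec4d and Clec4e by 1.46 ± 0.35 and 1.40 ± 0.36 (SE), and Acod1, which makes itaconate, by 1.27 ± 0.36 (SE). Without Yaa 2 and Yaa 3 these differences were 1.86 for Slfn4, 0.78 for Clec4d, 0.71 for Clec4e and 0.55 for Acod1.

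Acod1 read 479.9, 1406, 1236 and 460 in Yaa 1 to 4, against 315, 305, 334 and 316 in wild type 1 to 4. Yaa 2 and Yaa 3 were high and the other Yaa samples lay nearer to wild type, without overlap. Genes chosen after their values were seen show the range within the list. Cxcl2, a neutrophil-attracting chemokine gene, differed by 1.44 ± 0.43 (SE) with 2131 in Yaa 2, and by 0.60 without Yaa 2 and Yaa 3, while Il1b differed by 0.61 ± 0.33 (SE) in all and by -0.05 without Yaa 2 and Yaa 3. The feedback inhibitor genes Nfkbia and Tnfaip3 differed by 0.12 ± 0.08 and -0.10 ± 0.18 (SE).

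Of the other Toll-like receptors, 4 were tested. Tlr7 and Tlr8, which lie in the X segment copied onto the Yaa chromosome, differed by 0.91 ± 0.21 and 0.73 ± 0.17 (SE), Tlr13 by 0.44 ± 0.26 (SE) and Tlr9 by 0.28 ± 0.21 (SE). Tlr7 read 244, 349, 181 and 217 in Yaa 1 to 4, against 99.4 to 143 in wild type. Among the Yaa samples Tlr7 was lowest in Yaa 3, where the normalized signals of Cd14 and Tlr2 were highest. Tlr8 did not share this order, at 72.0, 57.5, 69.9 and 43.7 in Yaa 1 to 4. In the signals as deposited Cd14 was highest in Yaa 2, at 1877, against 1807 in Yaa 3. Yaa 3 was also the sample with B cell markers at a mean log2 signal of 5.86. The part of its cell make-up in these values was not tested.

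**Figure D4:**
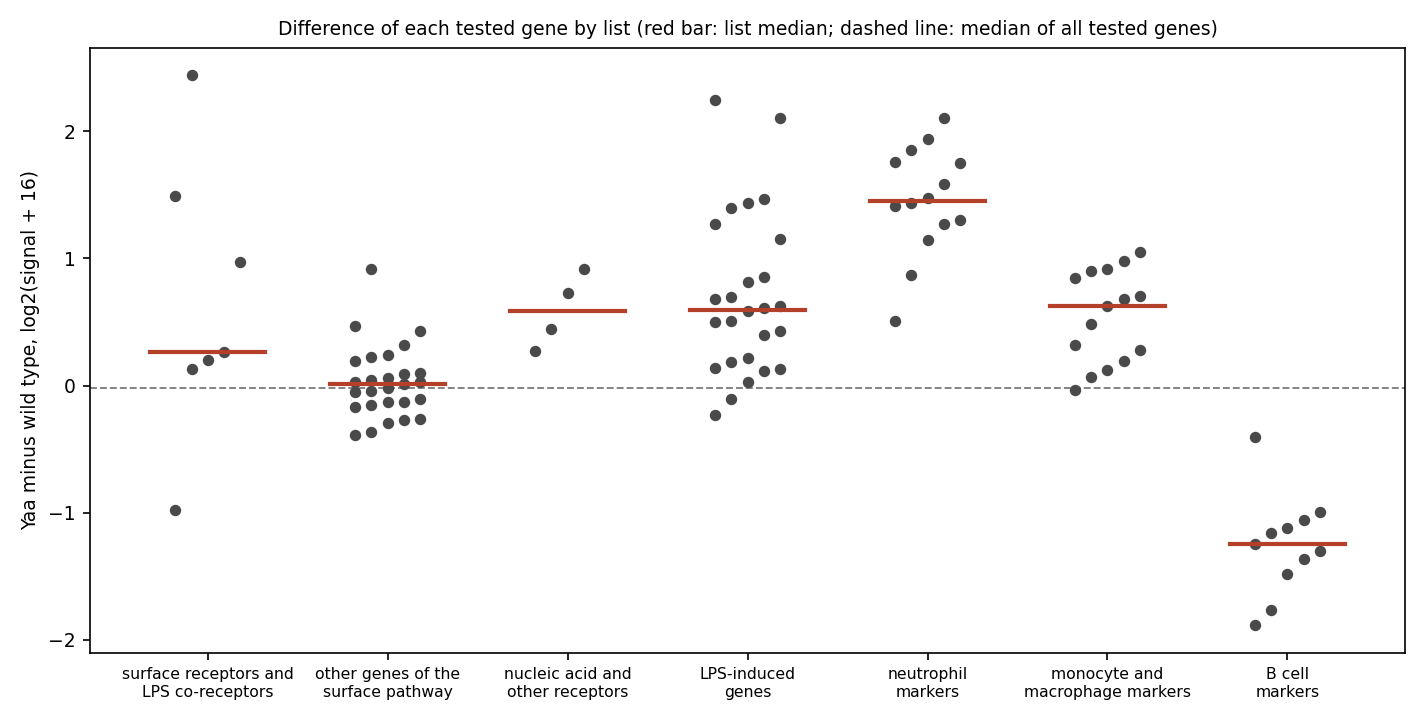
Yaa minus wild type in log2(signal + 16) for each tested gene of 7 lists. Points are genes, red bars are list medians (0.01 for the other genes of the pathway, 0.60 for LPS-induced genes) and the dashed line is the median of all 10340 tested genes at -0.02.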

How the data were processed

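Per the submitters' processing notes, the deposited signals were made with MAS5 and are linear intensity values, 1 for each probe set. Its version, scaling and any filter are not stated in the labels. Trimmed mean signals, without the lowest and highest 2% of probe sets, ran from 107 to 193 over the arrays, so all arrays were quantile normalized. Log2(signal + 16) was taken, and fold changes on that scale understate those of dim probe sets. Array controls, 64 in number, were dropped, as was the dimmer part of the array, with mean log2 signals up to the median of 5.38. The groups of 4 were compared in limma 3.58.1 in R 4.3.3 (lmFit, eBayes with trend), with Benjamini-Hochberg adjustment over 22518 probe sets. The brightest tested probe set stood for its gene. Symbols came from the platform annotation, updated through Entrez IDs to GRCm38.p6. The number of arrays limits the precision, and detection calls were not used.

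The genes, lists and tests were chosen with earlier results of these data known. Named are all 8 receptor and co-receptor genes, genes of each list with the largest moderated t (4 at most), and the genes nearest in pattern, 5 for Cd14 and 3 for others with an SD of at least 0.5; further genes are marked as chosen after their values were seen. The procedure was run on simulated data with equal noise in both groups and all arrays, which does not cover the wider spread of the Yaa samples here. Alternatives were pseudocounts of 1 and 64, other filters, scalings and variance models, array weights, a replicate block, and samples left out.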

Additional observations from a re-analysis of the deposited data

Results flagged for a closer look

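In 30 groups of 4 samples (8 probe sets of the surface receptors and co-receptors, and 7 marker lists, in each strain), a sample was looked for whose gap to its nearest neighbour filled more of the group's range than Dixon's 95% critical value; about 5% of groups do so by chance. None of the 16 groups of receptor probe sets did. B cell markers in Yaa 3 did, at a mean log2 signal of 5.86, and erythroid markers in Yaa 2, at 10.01. Their part in the receptor differences was not tested.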

How the results depend on the processing

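Over all tested probe sets limma called 1. It called 0 with log2(signal + 1), with the stricter filter and with the replicate block, 143 with array weights (102 higher and 41 lower) and 105 without Yaa 2 and Yaa 3. With single samples left out it called 0 to 30, with 30 without Yaa 2, 10 without Yaa 4 and 0 without Yaa 1 or Yaa 3. Of the 8 receptor probe sets it called 0, but 2 with array weights (Cd14, and Lbp, which passed the filter only through the Yaa samples), 1 without Yaa 2 and Yaa 3 and 0 to 1 with single samples left out, that 1 being Cd14 without Yaa 4; the cause was not tested. The Tlr2 difference of 0.97 was 0.47 without Yaa 2 and Yaa 3. Over the 19 alternatives Cd14 lay between 1.96 and 2.80 and Tlr1 between -1.29 and -0.62. The signals as deposited and median-centred arrays moved the median of all tested probe sets to -0.20 and -0.11, and the Cd14 difference was then 2.26 and 2.34. Same-numbered samples did not deviate together (correlations -0.37 to 0.02), but 4 samples in each group are too few to exclude a pairing. With 1 sample of each group for each number, the replicate block can change the SE and not the difference. It called 0 receptor probe sets. Lbp and Tlr5 are dim, and their sizes follow the added constant.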
